A study of Mus musculus with 16 samples.

Results

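ZT12/ZT18-only interactions are the pairs of genomic fragments that were listed in mouse liver at ZT12, when the lights go off, and at ZT18, in the middle of the dark phase, and that were missing from the lists of ZT0, when the lights come on, and ZT6. Members were chosen by the deposited interaction scores alone: a pair, taken without regard to order, had to reach the lowest listed score of 5 at both ZT12 and ZT18 and had to be absent from both other lists. Of the 247177 distinct interactions in the 4 lists, 8649 met this rule, which is 3.50% of all. The livers came from wild-type C57BL/6 male mice. Per the paper, mice 8 weeks old were kept for 2 weeks in a light:dark cycle with food always available. No group carried an allele or an agent that the others lacked. Each timepoint had 3 pools (A, B and C) of 2 livers, and Pool A was sequenced in 2 runs, which gave 16 sequencing samples in all. The labels attach 1 list to all pools of a timepoint, so that no replicate error can be computed and no difference between timepoints was tested. Of the lists, that of ZT0 held 146262 interactions, that of ZT6 154775, that of ZT12 151529 and that of ZT18 151347. A summary supplied with the study attaches the totals of the last 3 lists to other timepoints. The sample labels were followed here, and the contacts that the paper describes for the Arntl promoter match them, as given further on. Under that other order the ZT12/ZT18-only set would be a different one, some of whose values are given beside the results.

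Promoter Capture Hi-C cuts chromatin with the restriction enzyme HindIII, joins fragments that lie close to each other in the nucleus, and keeps the joined pairs that hold a bait, a fragment with an annotated promoter. A promoter can so be seen to contact distant elements such as enhancers, or other promoters. In liver, the circadian clock is a loop in which CLOCK and BMAL1 (encoded by Arntl) bind E-boxes to activate the Per and Cry genes, whose products then repress them, and in which REV-ERB and ROR receptors set the level of Arntl. The clock and feeding together time much of the metabolism of lipids, bile acids and glucose. The score of an interaction is the CHiCAGO score, which grows as the observed reads exceed those modelled for that distance and those fragments. It is a measure of confidence, not of contact strength. Where a contact or timepoint is called strongest or weaker below, this refers to the score alone. The lists hold no RNA, so the tissue was not checked against marker genes. Shares are given with 95% Wilson intervals and medians with binomial order-statistic intervals. Both cover counting error only, and interactions of 1 promoter are not independent.

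The sequences below belong to the promoters and contacted fragments that the results turn on, read from the NCBIM37 (mm9) genome. The promoters are those 5 with the highest share of ZT12/ZT18-only contacts among promoters of the gene lists that had 3 or more such contacts, shown as the 250 bases before the annotated gene start. The contacts are 2 fragments of at most 300 bases from the 30 highest-scoring interactions, shown whole, since such short fragments recur below. Capitals mark the motifs that were searched: the E-box CACGTG, the AP-1 motif TGANTCA and the AP-2 motif GCCNNNGGC, in which N is any base, beside 4 others named further on.
Per1 promoter (chr11:68908469-68908718, plus strand): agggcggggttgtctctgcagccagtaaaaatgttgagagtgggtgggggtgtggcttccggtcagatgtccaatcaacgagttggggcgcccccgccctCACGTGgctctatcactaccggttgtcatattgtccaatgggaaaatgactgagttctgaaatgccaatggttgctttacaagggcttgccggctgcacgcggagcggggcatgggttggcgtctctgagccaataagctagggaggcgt
Idi1 promoter (chr13:8884602-8884851, plus strand): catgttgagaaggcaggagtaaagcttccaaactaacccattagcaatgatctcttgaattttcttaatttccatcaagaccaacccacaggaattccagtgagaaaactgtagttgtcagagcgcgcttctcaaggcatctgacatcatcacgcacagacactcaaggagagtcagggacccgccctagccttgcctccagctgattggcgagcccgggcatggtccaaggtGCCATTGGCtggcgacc
Ppara promoter (chr15:85565163-85565412, plus strand): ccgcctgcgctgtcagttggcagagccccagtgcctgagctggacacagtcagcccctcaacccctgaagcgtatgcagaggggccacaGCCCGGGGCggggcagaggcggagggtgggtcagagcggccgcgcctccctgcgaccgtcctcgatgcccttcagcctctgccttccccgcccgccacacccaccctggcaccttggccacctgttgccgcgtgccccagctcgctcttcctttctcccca
Gpam promoter (chr19:55201825-55202074, minus strand): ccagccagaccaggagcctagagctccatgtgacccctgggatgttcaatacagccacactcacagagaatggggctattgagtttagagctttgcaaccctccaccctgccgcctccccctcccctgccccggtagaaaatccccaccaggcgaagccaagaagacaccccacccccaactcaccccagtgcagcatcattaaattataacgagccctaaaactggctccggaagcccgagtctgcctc
Orm1 promoter (chr4:63005344-63005593, plus strand): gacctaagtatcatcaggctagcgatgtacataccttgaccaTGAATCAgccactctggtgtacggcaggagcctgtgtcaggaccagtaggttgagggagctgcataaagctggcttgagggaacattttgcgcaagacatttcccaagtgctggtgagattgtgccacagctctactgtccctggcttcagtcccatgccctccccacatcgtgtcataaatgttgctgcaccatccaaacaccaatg
AI987944 contact (chr7:48888111-48888297, plus strand): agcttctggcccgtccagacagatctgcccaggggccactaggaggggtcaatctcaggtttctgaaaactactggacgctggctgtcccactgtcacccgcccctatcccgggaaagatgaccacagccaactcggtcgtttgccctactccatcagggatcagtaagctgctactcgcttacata
Notch2 contact (chr3:97746391-97746629, plus strand): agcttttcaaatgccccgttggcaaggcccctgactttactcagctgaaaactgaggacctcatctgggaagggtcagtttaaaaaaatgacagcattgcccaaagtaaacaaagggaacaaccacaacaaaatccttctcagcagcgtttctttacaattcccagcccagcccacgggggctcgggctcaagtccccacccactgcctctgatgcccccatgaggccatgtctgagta
Per1, a repressor of the clock, carried 1 E-box in this window. The windows of Idi1 and Ppara each held the AP-2 motif and that of Orm1 the AP-1 motif, and none of the searched motifs was present in those of Gpam, AI987944 or Notch2.

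The ZT12/ZT18-only set was the most numerous of the 6 sets of interactions listed at exactly 2 timepoints. It made up 19.7% (19.4 to 20.1) of the 43847 such interactions, against 7709 for ZT6 and ZT12, 7624 for ZT0 and ZT6, 7243 for ZT6 and ZT18, 6524 for ZT0 and ZT18 and 6098 for ZT0 and ZT12. The ZT0/ZT6-only set is the mirror image of the rule, and served for comparison throughout. Of the 108177 interactions listed at both ZT12 and ZT18, 8.00% were absent at ZT0 and ZT6, and of the 104658 listed at both ZT0 and ZT6, 7.28% were absent at ZT12 and ZT18. Most of the numerical difference between the sets lay in interactions with a fragment of at most 500 bases, of which 1010 were ZT12/ZT18-only and 268 were ZT0/ZT6-only. Among interactions whose both fragments were longer the counts were 7639 and 7356. Under the other order of the lists the set would hold 7243 interactions.

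**Figure D1:**
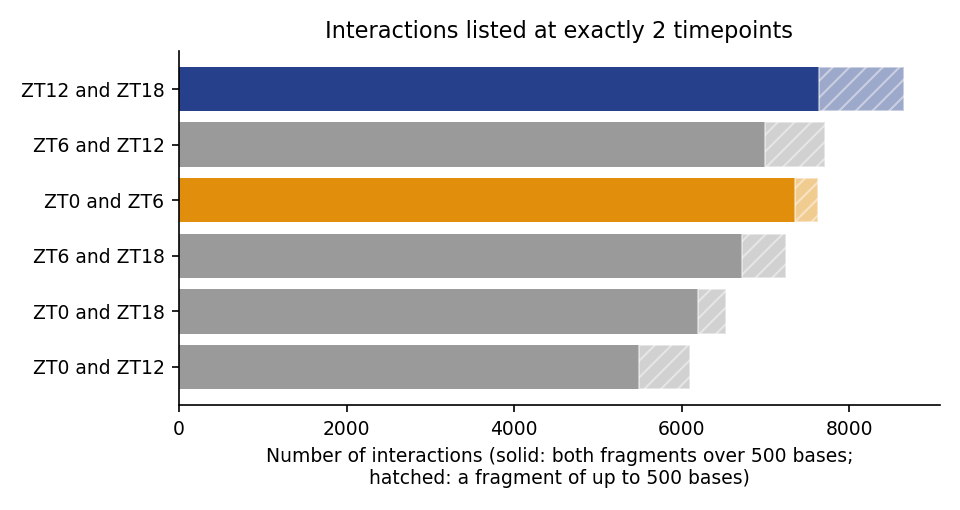
Horizontal bars give the number of interactions listed at exactly 2 timepoints, one bar for each pair of timepoints, with solid parts for interactions whose both fragments exceed 500 bases and hatched parts for the rest. The ZT12 and ZT18 bar reaches 8649, of which 1010 are hatched, and the ZT0 and ZT6 bar reaches 7624, of which 268 are hatched.

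The scores of ZT12/ZT18-only interactions lay close to the lowest listed value. Their median score was 5.91 at ZT12 and 5.90 at ZT18, with the highest at 33.5 and 15.7, and 4356 of them scored higher at ZT12 while 4247 scored higher at ZT18. The lower of the 2 scores had a median of 5.5, and 75.03% of the set had a lower score under 6. At the edge of the rule, 1061 interactions had a lower score under 5.1, with a median of 5.04, and were just inside. Another 850 interactions were listed at ZT12, ZT18 and 1 of ZT0 and ZT6 with a score under 5.1 there, median 5.05, and were just outside. Low scores were not particular to the set. The other sets of exactly 2 timepoints had median scores between 5.85 and 5.97, and medians of the lower score between 5.46 and 5.51. By contrast, interactions listed at all 4 timepoints had a median score between 8.75 and 8.98.

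The share of interactions that were absent from both other lists fell steeply as the score rose. Of the interactions listed at ZT12 and ZT18 with a lower score between 5 and 5.5, 23.9% (23.2 to 24.5) were absent at ZT0 and ZT6, against 21.3% (20.7 to 21.9) in the mirror comparison. Between 8 and 10 the share was 0.611% (0.504 to 0.742), against 0.817% (0.688 to 0.969). Between 10 and 15 it was 0.0885%, or 14 of 15811 interactions, and at 15 or more it was 0 of 8840, which allows a share of up to 0.0434% by the Wilson interval, against 3 of 8548 in the mirror comparison. At a lower score of at least 7, 518 ZT12/ZT18-only and 545 ZT0/ZT6-only interactions were found, so that the order of the counts turned at that score. Here only the 2 listed timepoints had to reach 7, and absence from the others was still judged at 5. With all lists reduced to a score of at least 10 the counts were 2040 and 1678. There absence was judged at 10 too, so that pairs listed with lower scores at the other timepoints counted as absent. Of the ZT12/ZT18-only set itself, 14 scored at least 10 at both.

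**Figure D2:**
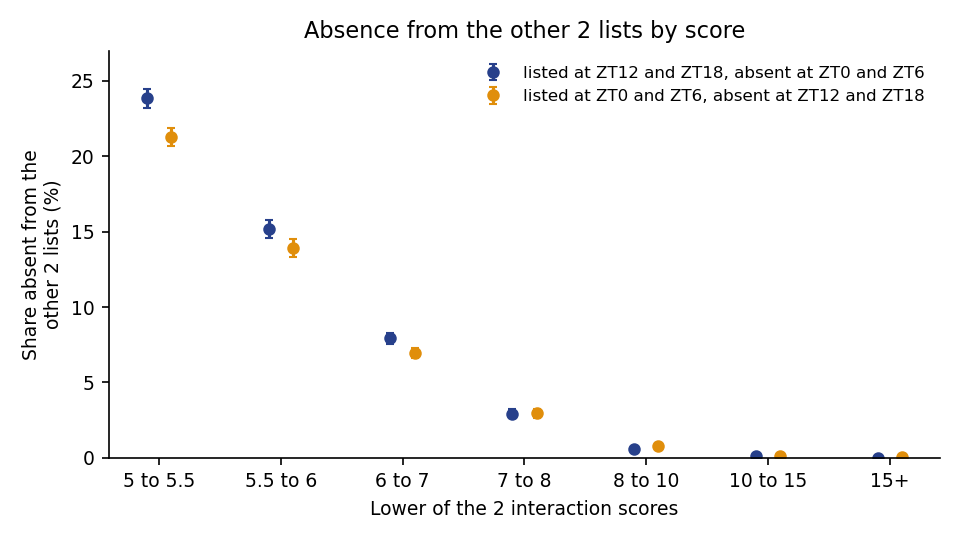
Points give the share (%) of interactions listed at 2 timepoints that were absent from the other 2 lists, against the lower of their 2 scores, with 95% Wilson intervals as bars, for ZT12 and ZT18 (blue) and ZT0 and ZT6 (orange). Both shares fall from above 20% at scores of 5 to 5.5 to under 1% at scores of 8 and above.

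The 10 ZT12/ZT18-only interactions with the highest lower score scored between 10.3 and 11.7 at the weaker timepoint. The promoter of AI987944, a zinc finger gene locus, contacted the 187-base fragment shown above, 240 kb away, with scores of 12.8 at ZT12 and 11.7 at ZT18. The fragment is intergenic and lies 0.369 kb from the start of Zfp788. Clasrp, which encodes a splicing regulator, contacted a fragment with exons of Fosb, a subunit of AP-1, 296 kb away at chr7:19888059-19894284, with scores of 11.7 and 12.1. None of the 10 was listed at ZT0 or ZT6, by the rule.

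Other pairs in this group joined promoters. Srp72, for a subunit of the signal recognition particle, contacted the fragment that holds the start of Polr2b, for a subunit of RNA polymerase II, 326 kb away with scores of 14.04 at ZT12 and 11.2 at ZT18. Etfb, for an electron transfer protein of mitochondria, contacted Iglon5, 43.2 kb away, with scores of 13.2 and 10.9. Hps3, a gene of lysosome-related organelles, contacted a fragment that holds a U1 RNA gene copy, 458 kb away, with scores of 10.8 and 10.6, and had no contact within 10 kb of that fragment at ZT0 or ZT6. These 3 pairs differed from the first in having a bait at both ends.

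The other contacts of the group described here lay outside promoters. Sstr3, a somatostatin receptor gene, contacted a fragment with exons of Ncf4, 289 kb away, with scores of 10.5 and 10.4. A bait that holds a U6 RNA gene copy contacted exons of Btaf1, 267 kb away, with scores of 30.4 and 10.4, the widest gap between the timepoints in the group. Nr5a2, which encodes a nuclear receptor of bile acid metabolism, contacted an intergenic fragment at chr1:139120679-139125276, 266 kb away, with scores of 10.3 and 12.9. Lrp11 on chromosome 10 contacted a 389-base fragment on chromosome 13, 103 kb from the start of Mef2c, with scores of 10.96 at ZT12 and 11.03 at ZT18, and was 1 of 4 ZT12/ZT18-only interactions between chromosomes.

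ZT12/ZT18-only interactions spanned shorter distances than each other set of interactions listed at exactly 2 timepoints. The median distance between fragment midpoints was 139 kb (136 to 143), against 192 kb (188 to 196) for the ZT0/ZT6-only set, 162 kb (161 to 162) for all interactions and 123 kb (122 to 124) for those listed at all 4 timepoints. Below 25 kb, 781 interactions were ZT12/ZT18-only and 316 were ZT0/ZT6-only, 4.81% (4.49 to 5.15) and 1.95% (1.74 to 2.17) of the interactions at that distance. Between 25 and 50 kb the counts were 872 and 356, and between 50 and 100 kb they were 1622 and 1003. Between 100 and 250 kb they were 3128 and 3146, and between 250 and 500 kb the order turned, with 1689 and 2057. The other sets of 2 timepoints had medians of 172 to 192 kb, and their intervals did not overlap that of the ZT12/ZT18-only set. Interactions listed at ZT12, ZT18 and 1 more timepoint had medians like that of the set, 137 kb (135 to 140) with ZT6 and 143 kb (139 to 147) with ZT0. Under the other order of the lists the median would be 182 kb.

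**Figure D3:**
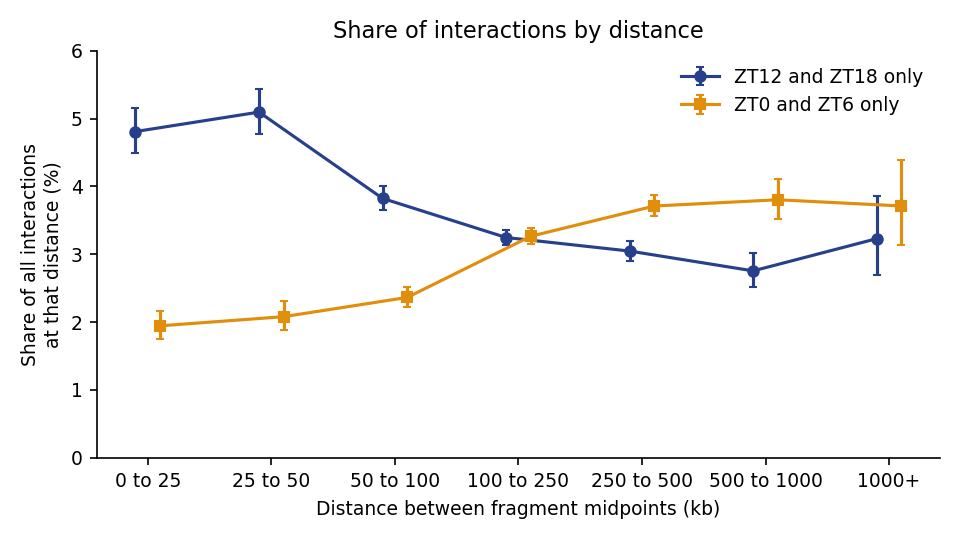
Points give the share (%) of all interactions in each distance bin (kb between fragment midpoints) that were ZT12/ZT18-only (blue) or ZT0/ZT6-only (orange), with 95% Wilson intervals as bars. The blue share lies at 4.81% and 5.096% below 50 kb, where the orange share lies at 1.95% and 2.08%, and the 2 meet between 100 and 250 kb.

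The difference in distance was also present without short fragments. With both fragments over 500 bases, the medians were 142 kb (138 to 146) and 192 kb (188 to 196), and with both over 2000 bases they were 141 kb (136 to 147) and 190 kb (184 to 196). Under 50 kb and over 500 bases, 1443 interactions were ZT12/ZT18-only and 660 were ZT0/ZT6-only. Among interactions with a fragment of at most 500 bases in that range, the counts were 210 and 12. At a score of at least 7 the medians were 168 kb (147 to 191) and 240 kb (223 to 262). The whole lists differed in the same direction but less, with medians of 148 and 150 kb at ZT0 and ZT6 and of 140 and 141 kb at ZT12 and ZT18.

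Short fragments were over-represented among the contacted ends. Of the 7181 ZT12/ZT18-only interactions between a promoter and a fragment that was no bait, 12.8% (12.0 to 13.6) contacted a fragment of at most 500 bases, against 3.51% (3.09 to 3.98) in the ZT0/ZT6-only set, 6.62% (6.44 to 6.82) at all 4 timepoints and 8.06% (7.95 to 8.18) of all. The lists themselves differed, since 8.03% of the ZT12 list and 7.01% of the ZT18 list had such a fragment, against 6.31% and 6.37% at ZT0 and ZT6. Over all interactions, whichever end is short, the share was 11.7% in the ZT12/ZT18-only set, 12.7% at ZT6, ZT12 and ZT18, 11.8% at ZT12 alone and 3.19% at ZT0, ZT6 and ZT18. The part that fragment length has in the other results was not tested beyond the counts given beside them.

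Promoter-promoter contacts, in which both fragments were baits, made up 16.97% (16.2 to 17.8) of the ZT12/ZT18-only set. Among the other sets of 2 timepoints it was 12.9% (12.2 to 13.7) for ZT0 and ZT6, 16.9% (16.05 to 17.9) for ZT0 and ZT18, 15.9% for ZT0 and ZT12, 12.7% for ZT6 and ZT12 and 12.6% for ZT6 and ZT18. It was 15.4% (15.3 to 15.5) of all interactions and 17.5% (17.3 to 17.8) at all 4 timepoints. Within the ZT12/ZT18-only set it was 18.9% (18.0 to 19.7) with both fragments over 500 bases, and would be 12.6% under the other order of the lists. The other ends were 6770 distinct fragments that were no bait. Of these, 34.5% (33.4 to 35.7) held an exon but no gene start, 30.03% (28.9 to 31.1) lay in introns and 33.3% (32.2 to 34.5) were intergenic. Over all 111722 contacted fragments that were no bait the shares were 28.5%, 31.5% and 38.1%, and in the ZT0/ZT6-only set they were 32.0%, 28.6% and 37.4%. The median GC content was 46.0% in the ZT12/ZT18-only set, 43.7% in the ZT0/ZT6-only set and 44.0% over all.

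Most ZT12/ZT18-only interactions lay next to a contact that the same promoter already had at ZT0 or ZT6. For 7114 of the 8649, or 82.3% (81.4 to 83.0), the promoter contacted a fragment within 10 kb of the same other end at ZT0 or ZT6, and for 58.1% (57.1 to 59.2) it contacted an adjoining fragment. In the mirror comparison the shares were 84.6% (83.8 to 85.4) and 58.9% (57.7 to 60.0). The 1535 interactions without such a neighbour had a median lower score of 5.44, against 5.51 for the others. Of them, 32.4% (30.1 to 34.8) were promoter-promoter contacts, against 13.6% (12.9 to 14.47) of those with a neighbour.

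At least 1 ZT12/ZT18-only interaction was found at 5976 of 18165 promoter fragments, which is 32.9%, and at least 1 ZT0/ZT6-only interaction at 29.2%. Exactly 1 was found at 3714 promoters, 3 or more at 953, which is 5.25%, and 5 or more at 225, which is 1.24%. Without fragments of at most 500 bases, 179 promoters had 5 or more, against 137 in the mirror comparison. The number followed the number of contacts of a promoter: of the promoters with 1 to 4 contacts 8.03% had a ZT12/ZT18-only interaction, and of those with 80 or more 85.3% did. As a share of all contacts, the number lay between 2.73% and 3.82% in each class of contact number. At least 1 ZT12/ZT18-only interaction was found at 58.1% of promoters with 20 to under 40 contacts. With 40 to under 80 contacts it was 76.6%. The shares of promoters given for gene lists further on carry this dependence.

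Some promoters held 9 to 13 ZT12/ZT18-only interactions, and the 10 with the most were chosen for description. Of those tied at 9 the ones with the higher summed score were taken, which left out Foxo1, described further on. The fragment with the starts of Alg12, a mannosyltransferase of protein glycosylation, and Creld2, a protein of the endoplasmic reticulum, had 13 of its 136 contacts in the set and none in the ZT0/ZT6-only set. Its contacts numbered 91, 90, 113 and 121, given here and below in the order ZT0, ZT6, ZT12 and ZT18. Of the 13, 12 had a neighbouring contact at ZT0 or ZT6, and they lay 38.6 to 654 kb away. These numbers include the ZT12/ZT18-only interactions, which by the rule are counted at ZT12 and ZT18 alone, so that nothing is read from their order.

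Lin37, Psenen and U2af1l4 share a fragment, which had 12 of 74 contacts in the set and 0 in the mirror set, and contact numbers of 28, 29, 42 and 60. Psenen encodes a subunit of gamma-secretase. Sall1, a zinc finger transcription factor gene, had 12 of 90 against 1, and contact numbers of 41, 45, 66 and 64. Cox6b1, for a subunit of cytochrome c oxidase, had 11 of 79 against 1. Slc25a15, for the ornithine carrier of the urea cycle, had 11 of 109 against 0, with contact numbers of 57, 72, 68 and 84, so that here ZT6 lay above ZT12. These 5 fragments also had the largest excess over the mirror set among all promoters.

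The next promoters by number were Ccdc158 with 10 of 153 against 4, a U1 RNA gene copy at chr4:95189821-95193839 with 10 of 168 against 2, Clasrp with 9 of 142 against 1, the homeobox gene Six5 with 9 of 89 against 2, and Lgi4 with 9 of 57 against 0. Since the 10 were chosen by this number, the comparison with the mirror set is a description.

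Many of these promoters were linked to each other. When interactions that share a fragment were joined, the 8649 interactions fell into 4182 groups, of which 2506 were single interactions, while 54 groups of 10 or more held 1251 interactions. In the largest group, 106 interactions joined 33 promoters on chr7:30568671-31966469, among them Lin37, Cox6b1, Lgi4 and the free fatty acid receptor genes Ffar1 and Ffar3. That span held 2270 interactions in all, 121 of them ZT12/ZT18-only and 31 ZT0/ZT6-only. The second group, on chr7:19465705-20539420, joined 34 promoters by 95 interactions, among them Clasrp, Six5 and Relb, and its span held 100 against 63. The third, on chr15:88537254-89305106 around Alg12, joined 15 promoters by 63 interactions, and its span held 66 against 31. Without short fragments the counts in the 3 spans were 109 against 30, 96 against 60 and 55 against 29. The spans were drawn around linked ZT12/ZT18-only interactions, which favours that set in the counts, so that these are a description. Over all interactions the shares of the 2 sets were 3.50% and 3.08%. Chromosome 7 as a whole held 923 of the set, or 4.01% (3.76 to 4.27) of its interactions, against 652 in the mirror set, or 2.83% (2.63 to 3.05). This was not particular to it, since the shares were 4.17% against 2.83% on chromosome 8 and 4.08% against 2.87% on chromosome 15. On chromosomes 1, 13, X and Y the mirror set was the larger.

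Among the core clock genes, 5 of the 11 promoters with a listed fragment had a ZT12/ZT18-only interaction, or 45.5%, beside 32.9% of all promoters. Rora had no listed promoter fragment. These promoters had 129 contacts, of which 13, or 10.1% (5.98 to 16.5), were ZT12/ZT18-only and 2, or 1.55% (0.426 to 5.48), were ZT0/ZT6-only, beside 3.55% and 3.02% over all promoters. The other pairs of timepoints held 2 to 4 of the 129, and under the other order of the lists the count would be 3. With both fragments over 500 bases, 9 of 120 contacts, or 7.50%, were ZT12/ZT18-only. Of the 13, 11 had a neighbouring contact at ZT0 or ZT6.

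Per1 accounted for 5 of the 13, out of 22 contacts, and its contacts numbered 5, 7, 19 and 12 at the successive timepoints. The strongest joined its promoter to exons of Kdm6b, a histone demethylase gene, 315 kb away at chr11:69220965-69227027, with scores of 9.24 at ZT12 and 9.82 at ZT18. Its promoter also contacted the promoter fragment of Chd3, a chromatin remodeller gene, 273 kb away, with scores of 7.53 and 6.22. The 367-base fragment that adjoins the latter scored 5.74 and 5.42. The remaining 2 lay 26.9 kb away, near Tmem107, with 7.24 and 5.58, and 21.7 kb away on a 380-base fragment near Hes7, with 5.45 and 5.63. Of the 5, the 2 at Chd3 had no contact within 10 kb at ZT0 or ZT6.

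Per2 had 2 of 20, to the promoter of the phosphatase gene Ilkap with 6.46 and 6.15, and to a 248-base fragment near Traf3ip1 with 6.18 and 5.01. Its contacts numbered 9, 10, 19 and 13.

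Nr1d1, which encodes REV-ERBalpha, had 2 of 15, to exons of the Mediator gene Med24 with 7.29 at ZT12 and 5.5 at ZT18, and to a fragment near Csf3 with 5.19 and 5.66. Its contacts numbered 6, 10, 9 and 8, with ZT6 above both ZT12 and ZT18. Cry2, a repressor gene of the clock, had 1 of 14, to a 163-base fragment near Pex16 with 5.11 and 7.36. Arntl, Clock, Npas2, Per3, Cry1 and Nr1d2 had none, and Per3 and Nr1d2 each had 1 ZT0/ZT6-only interaction. Arntl, Clock, Cry1 and Nr1d2 had 1 to 3 contacts in all, which left little room for any pattern.

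Among clock output regulators, 5 of 9 promoters, or 55.6%, had a ZT12/ZT18-only interaction, beside 32.9% of all promoters. This share rises with the number of contacts of a promoter. Bhlhe40 and Hlf had 3 or more ZT12/ZT18-only interactions. Bhlhe40, which encodes a repressor that binds E-boxes, had 8 of 149 contacts in the set and 2 in the mirror set. Of the 8, 5 lay in Itpr1, the gene of a calcium channel, 282 to 383 kb away, of which an intronic fragment at 383 kb scored 8.18 at ZT12 and 9.40 at ZT18. Hlf, for a transcription factor that binds D-boxes, had 4 of 115 against 0, with scores of 7.40 and 7.02 at the strongest, in an intron of Mmd. The list as a whole had 17 of 440 contacts in the set, 3.86% (2.43 to 6.10), beside 3.55% over all promoters.

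Promoters of cholesterol and bile acid synthesis had 15 of 230 contacts in the ZT12/ZT18-only set, 6.52% (3.99 to 10.5), and 3 in the ZT0/ZT6-only set, 1.30% (0.445 to 3.76), beside 3.55% and 3.02% over all promoters. Under the other order of the lists the former count would be 3 as well. At least 1 was found at 6 of 16 promoters, or 37.5%, beside 32.9% of all promoters, and 3 promoters, Idi1 and Cyp51 among them, had 3 or more. Idi1, for the isomerase that makes the 2 building blocks of isoprenoids, had 5 of 19 against 0, and contact numbers of 6, 4, 18 and 12. Its strongest contact was the promoter of Wdr37, 18.3 kb away, with scores of 8.51 at ZT12 and 10.3 at ZT18, and the other 4 lay 193 to 290 kb away on the side of Larp4b. The bait of Idi1 is only 268 bases long, so that all 5 are lost with the short fragments, after which 10 of 203 contacts of the list remain in the set.

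Cyp51, for the lanosterol demethylase, had 3 of 18 against 0, all in Akap9, with 7.34 and 6.57 at the strongest. Lss had no listed promoter fragment, and Hmgcs1 was not found in the annotation under that symbol.

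In fatty acid and triglyceride synthesis, 9 of 16 promoters, or 56.25%, had a ZT12/ZT18-only interaction, beside 32.9% of all promoters. This share rises with the number of contacts of a promoter. In the set were 18 of 443 contacts, 4.06% (2.59 to 6.33), with 11 in the mirror set, 2.48%, beside 3.55% and 3.02% over all promoters. Gpam, for the acyltransferase that opens triglyceride synthesis, had 6 contacts, of which 3 were in the set and the other 3 were listed at all 4 timepoints. All 3 lay 40.6 to 65.2 kb away in and near Tectb, with scores of 8.48 at ZT12 and 7.01 at ZT18 at the strongest. Dgat1, for the enzyme that closes it, had 8 of 74 against 1, among them contacts with exons of Plec (6.14 and 6.78) and Oplah (7.71 and 5.58) and with an intron of Hsf1, the heat shock factor gene (5.71 and 5.62). Its contacts numbered 35, 41, 53 and 53.

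Ppara, the nuclear receptor that drives fatty acid oxidation in fasting, had 6 of 23 contacts in the set against 0, and so held 6 of the 10 in the list of fatty acid oxidation and ketogenesis. Its contacts numbered 6, 9, 17 and 19. The strongest lay 4.03 kb from the start of Ttc38, 88.7 kb away from the bait, with scores of 9.85 at ZT12 and 7.94 at ZT18, and 2 lay in introns of Ppara, with 7.21 and 8.07 and with 6.43 and 6.26. All 6 had a neighbouring contact at ZT0 or ZT6. The list as a whole had 10 of 172 against 3, 5.81% (3.19 to 10.4) and 1.74% (0.595 to 5.002), beside 3.55% and 3.02% over all promoters.

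**Figure D4:**
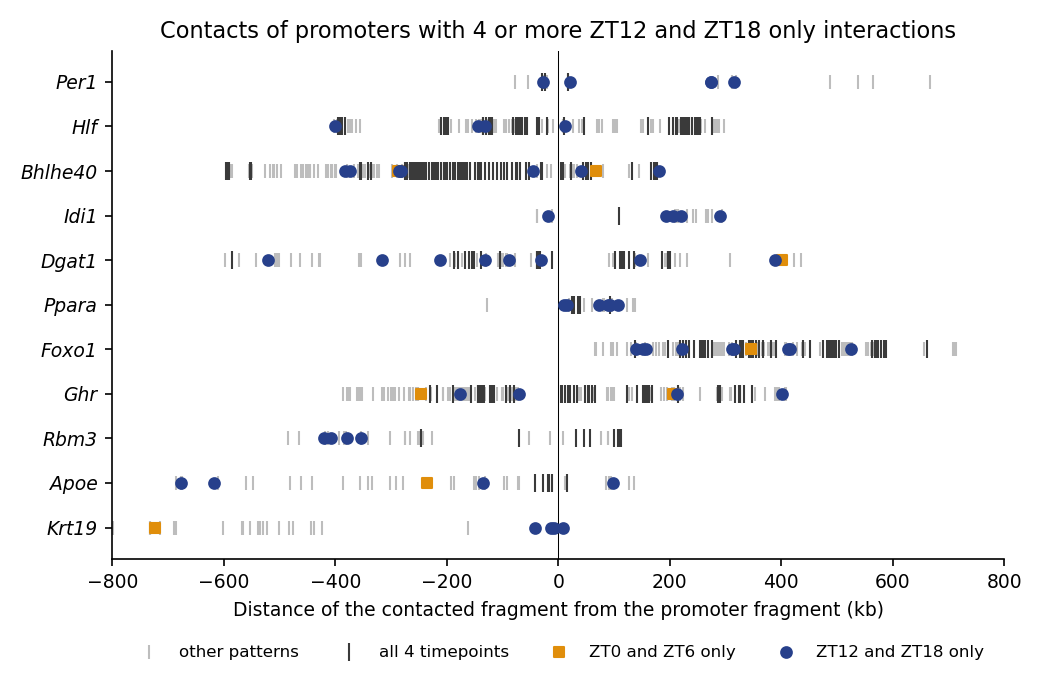
Each row is a promoter from the gene lists, 11 in all, with 4 or more ZT12/ZT18-only interactions, and each mark is a contacted fragment at its distance from the promoter fragment (kb, negative towards lower coordinates): blue circles for ZT12/ZT18-only, orange squares for ZT0/ZT6-only, black ticks for all 4 timepoints and grey ticks for other patterns. The 61 blue circles lie mostly beside ticks, the circles at 273 and 275 kb in the Per1 row are among those without a contact within 10 kb at ZT0 or ZT6, and 5 contacts, none of them ZT12/ZT18-only, lie beyond the 800 kb of the axis.

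Glucose and glycogen metabolism had 15 of 358 contacts in the ZT12/ZT18-only set, 4.19% (2.56 to 6.80), and 2 in the ZT0/ZT6-only set, 0.559% (0.153 to 2.01), beside 3.55% and 3.02% over all promoters. Of its 15 promoters, 8 had at least 1, or 53.3%, beside 32.9% of all promoters, a share that rises with the number of contacts. The pair ZT0 and ZT18 held more of its contacts, 18 or 5.03%. Gbe1, for the glycogen branching enzyme, had 3 of 51 against 1, all within 68.0 kb of its bait, with scores of 8.43 at ZT12 and 6.77 at ZT18 on a 425-base fragment. Gsk3a, for a kinase that inhibits glycogen synthase, had 3 of 56 against 0, among them an intron of Lipe, the hormone-sensitive lipase gene, with 6.18 and 6.89. Fbp1, for a rate-controlling enzyme of gluconeogenesis, had 3 of 61 against 1, all in 2010111I01Rik or Fancc, 409 to 530 kb away, with 7.81 and 6.56 at the strongest.

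In insulin and growth hormone signalling, 9 of 15 promoters, or 60%, had a ZT12/ZT18-only interaction, beside 32.9% of all promoters. This share rises with the number of contacts of a promoter. In the set were 26 of 672 contacts, 3.87% (2.65 to 5.61), against 15, 2.23%, beside 3.55% and 3.02% over all promoters. The pair ZT6 and ZT12 held more, 29 or 4.32%. Foxo1, for a transcription factor that insulin keeps out of the nucleus, had 9 of 129 against 1, all intergenic and 140 to 525 kb to the higher-coordinate side. All 9 had a neighbouring contact at ZT0 or ZT6, and the farthest scored 8.06 at ZT12 and 5.97 at ZT18. Its contacts numbered 72, 96, 112 and 88, so that ZT18 lay below ZT6. Foxo3, of the same family, had 3 of 68 against 0, 2 of them in its own introns. The growth hormone receptor gene Ghr had 4 of 141 against 2, also with 2 in its own introns.

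Xenobiotic metabolism had 6 of 261 contacts in the set, 2.30% (1.06 to 4.92), against 4, 1.53%, beside 3.55% and 3.02% over all promoters. Of the 6, 3 were at Nr1i2, the gene of the pregnane X receptor. Among these 3, 1 lay on exons of Gsk3b with scores of 5.25 at ZT12 and 5.98 at ZT18. Hepatocyte transcription factors had 13 of 472, 2.75% (1.62 to 4.65), against 18, 3.81% (2.43 to 5.95). The 13 were spread over 11 of 15 promoters, or 73.3%, beside 32.9% of all promoters, with none above 2. This share of promoters rises with the number of contacts. Hepatocyte transcription factors were the only one of the 13 lists with fewer ZT12/ZT18-only than ZT0/ZT6-only interactions.

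Plasma protein promoters had 23 of 540 contacts in the ZT12/ZT18-only set, 4.26% (2.85 to 6.31), against 12, 2.22%, beside 3.55% and 3.02% over all promoters. At least 1 was found at 13 of 17, or 76.5%, beside 32.9% of all promoters, a share that rises with the number of contacts. Apoe, for an apolipoprotein, had 4 of 44 against 1, all on other promoter fragments. Its scores were 9.83 at ZT12 and 9.76 at ZT18 with Dmpk, 617 kb away, 9.04 and 10.7 with Lrrc68, 6.92 and 8.99 with Cblc, and 7.38 and 5.54 with Foxa3, a hepatocyte transcription factor gene 676 kb away. Orm1, for an acute phase glycoprotein, had 3 of 12 against 0, all in Col27a1, of which 2 had no neighbouring contact at ZT0 or ZT6. Apoa1 and Apoc3, which share a fragment, had 3 of 47 against 2, and Ttr, the transthyretin gene, had 3 of 81 against 0.

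Heat shock and temperature response promoters had 10 of 175 contacts in the set, 5.71% (3.13 to 10.2), against 2, 1.14%, beside 3.55% and 3.02% over all promoters. The pair ZT6 and ZT18 also held 10. Hspa5, for a chaperone of the endoplasmic reticulum, had 3 of 21 against 1, among them the promoters of Psmd5 with 10.3 at ZT12 and 8.64 at ZT18 and of Traf1 with 7.21 and 5.67. Rbm3, for a cold-inducible RNA-binding protein, had 4 of 36 against 0, on exons of Wdr45, Ccdc120, Tcfe3 and Gripap1, 353 to 421 kb away. Its strongest scores were 8.65 and 5.91, at Gripap1.

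Promoters of genes that mark other cells of the liver were looked at in the same way, beside shares of 3.55% and 3.02% over all promoters. Haematopoietic and immune markers had 5 of 86 contacts in the ZT12/ZT18-only set, 5.81% (2.51 to 12.9), against 2, with 3 of them at Itgam, an integrin gene of myeloid cells, and 7.36 at ZT12 and 7.90 at ZT18 at the strongest. Endothelial, stellate and bile duct markers had 6 of 92, 6.52% (3.02 to 13.5), against 3, with 4 at Krt19, a keratin gene of bile ducts, none scoring above 6.50. In whole liver, a contact in more cells and a contact in another mix of cells cannot be told apart.

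**Figure D5:**
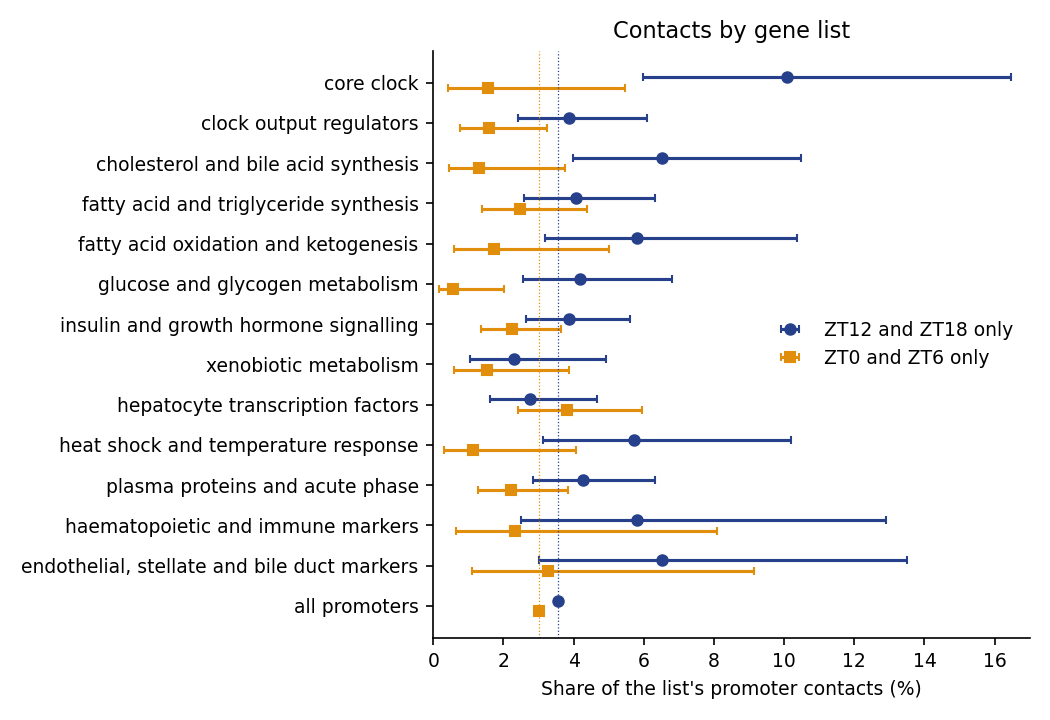
Points give the share (%) of promoter contacts of each gene list that were ZT12/ZT18-only (blue circles) or ZT0/ZT6-only (orange squares), with 95% Wilson intervals as bars and dotted lines at the shares over all promoters, 3.55% and 3.02%. The blue interval of the core clock list, 5.98% to 16.5%, and that of cholesterol and bile acid synthesis, 3.99% to 10.5%, lie above the blue line, and the others cross it.

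The other pairs of timepoints were counted for the same lists. The ZT12/ZT18-only set was the most numerous of the 6 pairs in 6 of the 13 lists: core clock, cholesterol and bile acids, fatty acid oxidation, plasma proteins, and both lists of other cell types. In the rest another pair held as many or more, among them ZT6 and ZT12 with 20 of the clock output contacts. Under the other order of the lists, in which the ZT6 and ZT18 pair takes the place of the set, cholesterol and bile acid synthesis would hold 3 of 230 in place of 15, fatty acid oxidation 3 in place of 10, glucose 8 in place of 15, and plasma proteins 7 in place of 23. Clock output would hold 10 in place of 17, insulin and growth hormone signalling 18 in place of 26, and hepatocyte transcription factors 12 in place of 13. The immune markers would hold 1 in place of 5 and the endothelial, stellate and bile duct markers 2 in place of 6. Fatty acid synthesis (18), xenobiotic metabolism (6) and heat shock (10) would hold the same number. Over all promoters the share would be 2.86% in place of 3.55%, and so the shares of core clock and cholesterol contacts would lie below it.

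Promoters of genes with circadian RNA were compared next. The study chose this list on RNA of livers of the same experiment, and gave each gene an acrophase, the time of its highest RNA level. Of the 1256 genes, 1136 were placed on 1118 promoter fragments, of which 42.3% (39.4 to 45.2) had a ZT12/ZT18-only interaction, beside 32.9% of all. These promoters had a median of 13 contacts against 9 over all promoters. As a share of contacts the difference was small, 3.84% (3.596 to 4.11), against 3.52% (3.45 to 3.59) for the other promoters, while the ZT0/ZT6-only share was 2.63% (2.43 to 2.85) against 3.05% (2.99 to 3.12).

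By acrophase, the ZT12/ZT18-only share was 3.48% (2.98 to 4.06) for ZT0, 3.73% (3.26 to 4.25) for ZT6, 3.77% (3.37 to 4.21) for ZT12 and 4.44% (3.78 to 5.21) for ZT18. The intervals of the 4 acrophases overlapped. Under the other order of the lists the counts would be 125, 187, 237 and 105 in place of 154, 211, 303 and 143. The ZT0/ZT6-only share was lower at every acrophase, between 2.17% and 3.00%. For ZT0 the counts were 154 against 96. Over all promoters the ZT12/ZT18-only share was likewise the larger, 3.55% against 3.02%, so that nothing is read about genes with morning RNA peaks.

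Among the 5 circadian promoters with the most were Alg12/Creld2 and Bhlhe40, described above, Hapln4 and Tbl2. Hapln4, with an acrophase of ZT18, had 7 of 56 against 0, among them exons of Gatad2a, a gene of a repressor complex, with 5.75 at ZT12 and 8.53 at ZT18. Tbl2, also with an acrophase of ZT18, had 7 of 41 against 0, 3 of them in Stx1a and its surroundings and 3 in Baz1b, with contact numbers of 23, 21, 33 and 33.

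Motif matches were counted on both strands in the 6770 contacted fragments that were no bait. The E-box was found 15.3 times per 100 kb in the ZT12/ZT18-only set, 13.7 times in the ZT0/ZT6-only set and 13.8 times over all contacted fragments. The D-box TTATGTAA was found 4.10, 4.57 and 4.596 times, the nuclear receptor half-site AAGGTCA 21.6, 20.4 and 20.6 times, and the cAMP response element TGACGTCA 0.827, 0.590 and 0.687 times. AP-1 was found 31.1, 31.4 and 31.9 times, AP-2 26.5, 19.6 and 20.98 times, and the CTCF core motif 1.41, 1.36 and 1.23 times. Between the ZT12/ZT18-only and ZT0/ZT6-only sets AP-2 had the widest difference per 100 kb, and the rarer cAMP response element, with 169 and 125 matches, the widest ratio, in fragments whose median GC content was 46.0%, 43.7% and 44.0%.

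In promoters, the window from 250 bases before to 50 bases after the gene start held an E-box in 8.63% of the 985 protein-coding genes that start on baits with 3 or more ZT12/ZT18-only interactions and in 8.54% of all 16859. The AP-2 motif was present in 21.5% and 20.2%, the cAMP response element in 3.45% and 2.56%, AP-1 in 6.50% and 6.38%, the nuclear receptor half-site in 3.25% and 3.67%, the D-box in 0.914% and 0.848% and the CTCF core in 1.22% and 1.25%. A match is a match of letters and not a bound site.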

How the data were processed

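Promoter Capture Hi-C was done by the authors on pools of livers at ZT0, ZT6, ZT12 and ZT18. Per their methods, reads were processed with HiCUP, and filtering and calling of interactions used CHiCAGO. The labels attach 1 list to all pools of a timepoint, and how the pools were combined is not given in the sources used here. The genome build is mm9 per the submitters' processing notes, and tool versions are not given in the sources used here. Each deposited list holds, for every interaction, the coordinates of both HindIII fragments and a score, taken as the CHiCAGO score, whose lowest value is 5 in each list. It is the only measured unit. The read depth behind the lists was not analysed here, so that precision could be judged from the number of listed interactions alone.

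Pairs were matched across lists without regard to order, in Python 3.11.15 with pandas 2.3.3, numpy 2.4.6, scipy 1.17.1, networkx 3.6.1 and pysam 0.24.0. A promoter is a fragment listed as a bait, named by the GENCODE vM1 genes that start on it, and distances run between fragment midpoints. All listed fragments but 1 were read from the NCBIM37 genome, and all of these opened at a HindIII site. Of 186 genes on 13 lists (core clock, clock output, cholesterol and bile acids, fatty acid synthesis, fatty acid oxidation, glucose, insulin and growth hormone, xenobiotic metabolism, hepatocyte transcription factors, heat shock, plasma proteins, and markers of immune and of endothelial, stellate and bile duct cells), 170 were placed on a promoter fragment, some through older symbols. Named are the 10 interactions with the highest lower score, the 10 promoters with the most ZT12/ZT18-only interactions, the 5 with the largest excess over ZT0/ZT6-only ones, all core clock promoters, other listed promoters with 3 or more, and the 5 circadian promoters with the most, with ties broken by the summed score. A few of these are not reported here. The interactions, gene lists and comparisons were chosen with earlier results of these data known.

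With 1 list per timepoint no test between timepoints could be run. The code that matches pairs and finds neighbouring contacts was tested on simulated data. Alternatives were stricter scores, lists of equal length, another order of the lists, other tolerances for neighbours, and other definitions of distance, bait and circadian gene. A restriction to fragments over 500 bases was chosen after seeing the data.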

Additional observations from a re-analysis of the deposited data

How the results depend on the processing

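No paired analysis was possible because every timepoint has only 1 list, attached by the labels to all its pools, and for the same reason no pool could be left out. Requiring a score of at least 7 at both ZT12 and ZT18 left 518 interactions, 0.941% of those listed at both, with a median distance of 168 kb, a promoter-promoter share of 24.1%, 0 promoters with 5 or more and 0.249% of circadian promoter contacts. Reducing all lists to a score of at least 10, with absence judged at 10 too, gave 2040 interactions, 8.28%, 116 kb, 22.6% and 23 promoters. The ZT0/ZT6-only interactions then numbered 1678. With the lists of ZT6, ZT12 and ZT18 read as ZT18, ZT6 and ZT12, the number was 7243, and the share of 6.80%, the median of 182 kb, the promoter-promoter share of 12.6% and the 98 promoters with 5 or more all moved. The lists alone do not settle which order is right. The paper describes 3 contacts of the Arntl promoter at ZT0, 2 at ZT18 and none at ZT6 or ZT12. Read by the labels, the lists gave Arntl 3, 0, 0 and 2 contacts at ZT0, ZT6, ZT12 and ZT18. The labels thus match the paper's account of this promoter, and under the other order the 2 contacts would fall at ZT12. Counting a contact within 10 kb at ZT0 or ZT6 as present, whether or not the shared fragment was a bait, left 1445 interactions. With the shared fragment a bait, as in the results above, 1535 had no such neighbour. Between the nearest fragment ends the median was 134 kb. The share without a neighbouring contact was 6.39% with a tolerance of 50 kb and 41.9% for adjoining fragments. Without fragments of at most 500 bases, an alternative chosen after seeing the data, 7.62% of interactions listed at ZT12 and ZT18 were absent from the other lists and the promoter-promoter share was 18.9%, with 7639 interactions, a median of 142 kb, 179 promoters with 5 or more and 3.70% of circadian promoter contacts. Lists of equal length gave 8270 interactions, 7.91%, 139 kb, 17.1% and 208 promoters. The causes of these shifts were not tested. Since most of the set scored within 1 unit of the lowest listed score, whether an interaction was missing at ZT0 and ZT6 or fell just short of that score there cannot be told from the lists.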

Other observations

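Among promoters grouped by gene family, chosen after values were seen, serpin promoters had 51 of 669 contacts in the ZT12/ZT18-only set, 7.62% (5.85 to 9.88, 95% Wilson interval), against 13, 1.94% (1.14 to 3.30), in the ZT0/ZT6-only set, beside 3.55% and 3.02% over all promoters. Of the 51, 46 lay at the 15 promoters of chromosome 12, the Serpina cluster of protease inhibitor genes secreted by liver, which had 447 contacts. Serpina3b had 8 of 60 against 0, the fragment of Serpina5 and Serpina3a 8 of 54 against 2, Serpina11 7 of 23 against 0, Serpina3i 7 of 54 against 0 and Serpina1e 5 of 12 against 0. Neighbouring promoters share contacts, so these are not independent. With both fragments over 500 bases, 44 of 616 serpin contacts were in the set. A group of 38 linked interactions on chr11:120303564-120703191, around Npb, P4hb and the glucagon receptor gene Gcgr, lay in a span with 41 ZT12/ZT18-only and 2 ZT0/ZT6-only interactions of 519. Over all interactions the shares of the 2 sets were 3.50% and 3.08%. This span was drawn around the linked interactions and named after values were seen, so that its counts are a description.

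Ribosomal protein promoters had 62 of 1610, 3.85% (3.02 to 4.91), against 34, 2.11%, beside 3.55% and 3.02% over all promoters. Histone and olfactory receptor promoters had fewer ZT12/ZT18-only than ZT0/ZT6-only contacts. Histone promoters had 42 of 1970 contacts in the ZT12/ZT18-only set, 2.13% (1.58 to 2.87), against 79, 4.01% (3.23 to 4.97), and the span chr13:21266054-23851043 around the Hist1 genes held 51 against 86 of 2104 interactions. Olfactory receptor promoters had 122 of 4159, 2.93% (2.46 to 3.49), against 174, 4.18% (3.62 to 4.84).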
